A study of Rattus norvegicus with 6 samples.

Results

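The genes described here are Plat, Plau and Plaur, which encode the plasminogen activators of tissue type and urokinase type and the urokinase receptor. They were taken from the deposited expression table as the probesets named for these symbols, 1 probeset a gene, and make up 3 of the 15037 genes named on the arrays. The set was chosen because Plat was higher in every knockout array, so the genotype differences of all 3 genes are given as descriptions with no test. The arrays measured RNA of blood vessel endothelial cells from the abdominal skin of Sprague-Dawley rats, 3 carrying an Il33 knockout (animals 27 and 28, female, and 52, male) and 3 wildtype (34 and 45, female, and 37, male). The cells of each animal were freed with collagenase and DNase, depleted of CD45-positive leukocytes and then of Lyve-1-positive lymphatic endothelium, and collected by their CD31, with 1 array an animal and no treatment in either group. Per-array values follow the order knockout 27, 28, 52 and wildtype 34, 45, 37. The sources used here give neither the age of the animals nor which bases of Il33 were removed. Whether the rats shared a litter is not stated either, so p-values measure the spread between these animals.

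Plasminogen is a circulating zymogen that either activator cuts to plasmin, the protease that dissolves fibrin. Tissue plasminogen activator works best when bound to fibrin, and the vessel wall is its main source; endothelial cells store it and release it on stimulation. Urokinase works mainly at cell surfaces, where its receptor, a protein held by a glycolipid anchor, concentrates it at the edge of migrating cells, and serpins inhibit both enzymes. The serpin that is the main inhibitor of both in plasma was not analysed here.

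The labels were checked first. Il33 had log2 expression of 8.37, 8.07 and 9.82 in the knockouts against 13.86, 16.32 and 16.60 in the wildtypes, and was the only gene called of 11584 tested (limma, adjusted p = 0.0436, difference -6.84). Over 17 alternatives its difference ran from -7.71 to -6.34, and its adjusted p, from 0.000156 to 0.651, passed in 9 of them. Blood endothelial markers had medians of 14.30 to 15.08 per array, and Cdh5 of endothelial junctions lay at 19.62 to 19.71, near the array ceilings of 19.70 to 19.93. The arrays also differed in ways that genotype does not account for. Added bacterial and phage control transcripts, which hold no rat RNA, gave means of 10.12 to 10.42 on knockout 28 and wildtype 34 and 45 (high spike-in signal) and of 8.82 to 9.33 on knockout 27 and 52 and wildtype 37 (low spike-in signal). Keratinocyte markers followed the same split, with medians of 11.56 to 15.11 on the first 3 arrays and of 7.96 to 8.44 on the others.

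Plat, the tissue plasminogen activator, stood well above background in the sorted cells of both genotypes. Its log2 expression was 14.55, 14.50 and 12.52 in the knockouts against 11.97, 11.83 and 11.81 in the wildtypes. All 3 knockout values lay above all 3 wildtype values, as the choice of the set requires, with a gap of 0.55 between the lowest knockout and the highest wildtype array. Plat averaged 13.86 ± 1.16 and 11.87 ± 0.09 (SD, n = 3 each), a difference of 1.99 on the log2 scale (SE 0.52, 95% interval 0.81 to 3.16). As the set was chosen on these values, the interval does not have its usual coverage. The spread was uneven, because the wildtype animals were between 11.81 and 11.97 while the knockout females stood well above the knockout male. In RNA of sorted cells, a larger share of cells expressing a gene and more RNA per cell cannot be told apart. Every array had Plat at least 7.08 above the median of the 23 background probesets and far below its ceiling, so neither limit bore on the values.

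**Figure D1:**
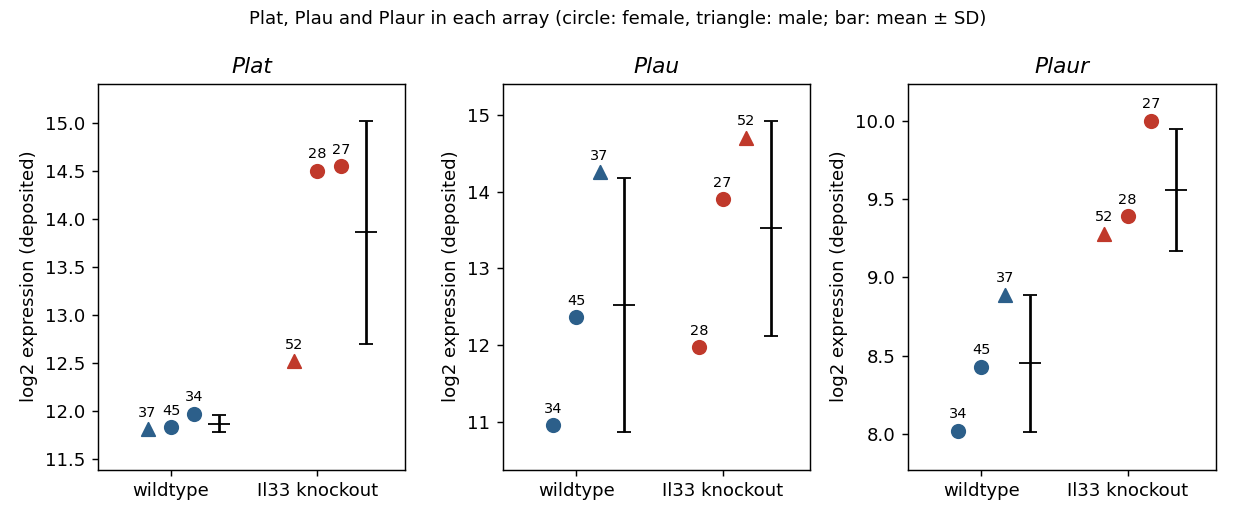
Log2 expression of Plat, Plau and Plaur (vertical axis, a scale of its own in each panel) in each array of the wildtype (blue) and Il33 knockout (red) groups; numbers are animals, circles females, triangles males, and black bars the group mean ± SD (n = 3). Plat and Plaur have no overlap between the groups, while Plau overlaps and is highest in knockout 52 (14.70) and wildtype 37 (14.25), the male arrays.

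Plau, the urokinase gene, varied more between animals of the same genotype than between the genotypes. It was 13.90, 11.97 and 14.70 in the knockouts against 10.95, 12.36 and 14.25 in the wildtypes, so the groups overlapped widely. The means were 13.52 ± 1.40 and 12.52 ± 1.66 (SD, n = 3 each), a difference of 1.0 (SE 0.86, 95% interval -0.93 to 2.94). That difference was smaller than the SD of either group.

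Plaur, the urokinase receptor, stood 3.47 to 5.28 above the background median of its array and was ordered by genotype. Its log2 expression was 10, 9.39 and 9.28 in the knockouts against 8.02, 8.43 and 8.89 in the wildtypes. The groups did not overlap, with a gap of 0.39 between knockout 52 and wildtype 37. The means were 9.56 ± 0.39 and 8.45 ± 0.44 (SD, n = 3 each), and the difference was 1.11 (SE 0.37, 95% interval 0.29 to 1.93). This interval, too, does not allow for the choice of the set. Unlike Plat, Plaur had a similar SD in both genotypes.

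None of the 3 genes was among those called between genotypes over the whole table (0 of 3; 0.00863% of all genes tested, which is Il33 alone). Every knockout array lay above every wildtype array for 2 of the 3 genes, against 3.36% of all genes tested; as the set was chosen on this contrast, nothing is read from that share. Both female knockouts lay above both female wildtypes for the same 2 genes, Plat and Plaur, against 19.3% of all genes tested, and this too is only a description. Across all genes the 5th and 95th percentiles of the difference were -0.60 and 0.70, and the median was 0.03.

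The 250 bases upstream of the start of Plau and of Plaur are shown so that the upstream sequences of the urokinase gene and of the gene of its receptor can be set side by side. The windows come from RefSeq on GRCr8, chr15:3511988-3512237 on the minus strand for Plau and chr1:89181113-89181362 on the plus strand for Plaur, and end at the base before the annotated start. Capitals mark motif matches on either strand. 
Plau: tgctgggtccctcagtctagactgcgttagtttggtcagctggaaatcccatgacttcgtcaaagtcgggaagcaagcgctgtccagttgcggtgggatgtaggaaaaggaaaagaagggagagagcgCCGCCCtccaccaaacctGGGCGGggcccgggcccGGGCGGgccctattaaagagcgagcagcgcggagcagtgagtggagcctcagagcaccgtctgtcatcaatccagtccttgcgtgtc
Plaur: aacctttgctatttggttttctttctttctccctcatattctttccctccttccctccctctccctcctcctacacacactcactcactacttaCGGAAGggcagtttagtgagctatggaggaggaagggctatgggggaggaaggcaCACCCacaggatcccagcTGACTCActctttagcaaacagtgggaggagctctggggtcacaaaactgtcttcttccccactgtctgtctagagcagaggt
The motifs were chosen after the sequences had been seen and were searched on both strands. TGANTCA is the site of AP-1, the Fos and Jun factors that answer growth and stress signals. GGGCGG is the GC box bound by Sp1 and its relatives in many promoters. CACCC is the box bound by Kruppel-like factors, among them those that answer flow in endothelium. CGGAAG is the core of sites for ETS factors, a family with several members in blood vessels. The TATA box, the cyclic AMP response element and the NF-kB motif were searched as well. No match overlapped another.

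Plau had 3 matches to the GC box, 122 to 117, 104 to 99 and 87 to 82 bases before the start, the first of them on the opposite strand, in a window of 60% G and C. Of 33469 windows of this length in the table, 30.47% hold at least 1 GC box and the median G and C content is 51.2%. Plaur had no GC box but 1 AP-1 motif (83 to 77 bases before the start), 1 CACCC box (101 to 97) and 1 ETS core (156 to 151), which 6.34%, 49.22% and 13.92% of windows hold. No other motif of the search was present in either window. Of the 3 genes, 2 had a window in the table, and Plat had none. Matches describe letters only, and no binding was measured.

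The genotype differences were then followed through subsets of the arrays. For Plat the difference was 2.62 in the females (2 against 2) and 0.71 in the male pair (1 against 1). It was 2.60 among arrays of high and 1.72 among those of low spike-in signal, and leaving out single arrays gave 1.64 to 2.65. Since the groups do not overlap for Plat or Plaur, subsets and left-out arrays cannot turn the sign of either, and only the sizes are read here; that of Plat was smallest in the males. For Plaur it was 1.47 in the females, 0.39 in the male pair, 1.17 at high and 0.75 at low spike-in signal, and 0.89 to 1.33 without single arrays. For Plau the difference was 0.32 among arrays of high and 0.05 among those of low spike-in signal, against 1.0 over all 6. It was 0.22 without wildtype 34, 0.42 without knockout 52, 1.78 without knockout 28 and 1.87 without wildtype 37, and -0.17 with the keratinocyte median of each array as a covariate. The Plau difference therefore depended on which animals were compared, and its sign on the treatment of the keratinocyte signal.

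**Figure D2:**
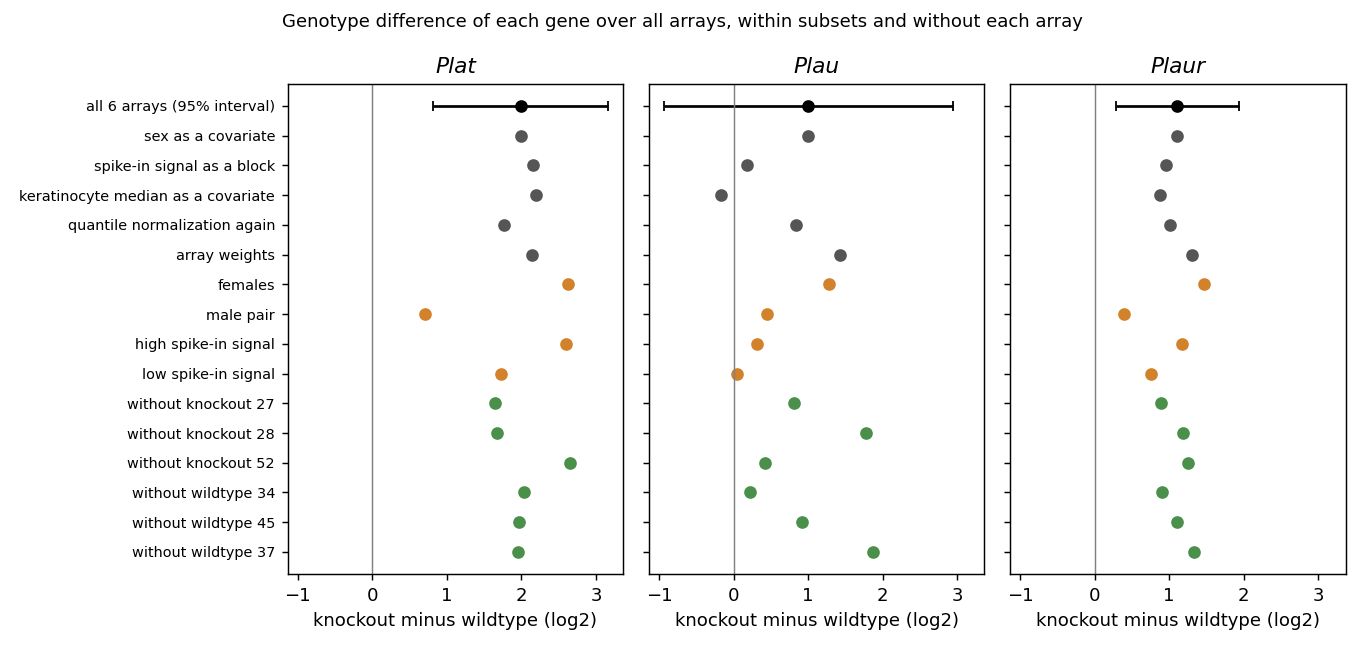
Knockout minus wildtype on the log2 scale (horizontal axis, shared by the panels) for Plat, Plau and Plaur over all 6 arrays (black, with the 95% interval from limma), under other models (grey), within subsets (orange) and without each array (green). The intervals do not allow for the choice of the set on this contrast. The points of Plat run from 0.71 to 2.65 and those of Plaur from 0.39 to 1.47, with a sign in subsets that the lack of overlap fixes, and those of Plau run from -0.17 to 1.87.

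Plau instead separated the arrays by spike-in signal and by sex. Its values on the low-signal arrays, 13.90, 14.70 and 14.25, all lay above those on the high-signal arrays, 10.95, 11.97 and 12.36, as did 17.2% of all genes tested. The array with the highest keratinocyte median, wildtype 34 at 15.11, had the lowest Plau. The part of epidermal RNA or of the array preparation in these values was not tested.

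The comparison of sexes did not enter the choice of the genes, so it was tested, in limma with genotype as a second term (2 males, 4 females). Plau was higher in males by 2.18 (SE 0.58, 95% interval 0.87 to 3.49), with 14.70 and 14.25 in the males against 10.95 to 13.90 in the females. It did not pass over all genes (adjusted p = 0.141 from limma, unadjusted p = 0.00428), and 0 of the 3 genes did, against 0.0259% of all genes tested. Both males lay above all females for 23.4% of genes tested, and 18.6% had an unadjusted p under 0.05, so such an order was common on these arrays. Without knockout 27 the Plau difference was 2.65 and passed (limma adjusted p = 0.0497, with 0.0329 to 0.877 over 15 alternatives). Calls between sexes numbered 74 in that setting and 713 with array weights, which gave the 0.0329, against 3 in the main fit. With the spike-in split as a block the Plau difference was 0.76, and with the keratinocyte median 0.57. Both male arrays are on the low side of that split.

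Plat went the other way, with a difference between sexes of -1.05 (SE 0.43, 95% interval -2.03 to -0.07, limma adjusted p = 0.246), which lay in the knockouts. Knockout 52 lay 2.01 under the mean of the knockout females, while wildtype 37 lay 0.09 under that of the wildtype females, and without knockout 52 the difference was -0.09. The interaction, by which the genotype difference in males differs from that in females, was -1.92 for Plat. It is built from the genotype values on which the set was chosen, so it is given as a description with no test. With 1 male a genotype, the interaction rests on the single arrays 52 and 37. Plaur differed by 0.12 between the sexes (95% interval -0.73 to 0.98, limma adjusted p = 0.884), and its interaction, likewise a description, was -1.08.

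The rest of the plasminogen system was examined in the same fit, with lists that hold the other genes of activation, surface binding and substrates. Of the 16 genes listed for the activation system, 14 had a probeset and 10 passed the filter on dim genes, the 3 activator and receptor genes among them. Of the other 7 tested genes 0 were called, 1 had a higher and 6 a lower mean in the knockout, and their median difference was -0.17, against 0.03 over all genes tested. Of these 7, 0 had an unadjusted limma p under 0.05, against 1.98% of all genes tested. The balance of higher and lower genes did not hold throughout. In the male pair 4 of the 7 were higher and 3 lower (median 0.05). With the keratinocyte median as a covariate 3 were higher and 4 lower. The filter at the 50th percentile kept only 3 of the 7. Plg, which encodes plasminogen and is made mainly in liver, lay at 2.69 to 3.90, under the background medians of 4.55 to 4.73, and was left out as dim, as were Serpina5, Serpinf2 (the plasmin inhibitor alpha-2-antiplasmin) and Hgfac.

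Among the inhibitors, Serpinb2, an inhibitor of urokinase known from keratinocytes and macrophages, was 6.18, 7.54 and 6.01 in the knockouts against 9.29, 7.77 and 5.55 in the wildtypes. Its values overlapped between genotypes and were highest in wildtype 34, the array with the highest keratinocyte median (difference -0.96, 95% interval -2.81 to 0.89, limma adjusted p = 0.999). Serpine2, protease nexin 1, which inhibits thrombin and both activators, was 6.45 ± 0.03 against 6.34 ± 0.81 (SD, n = 3 each). The wildtype values of Serpine2 ran from 5.48 to 7.10, on either side of the narrow knockout range of 6.43 to 6.48. Serpini1, neuroserpin, an inhibitor of the tissue activator first known from neurons, was lower in every knockout array than in every wildtype array, at 3.47 ± 0.43 against 4.18 ± 0.29, as were 2.89% of all genes tested. It lay below the background medians in every array and was not called (limma adjusted p = 0.999, unadjusted p = 0.0746). A2m, Cpb2, F12 and Klkb1, of the broad protease inhibitor, the fibrinolysis inhibitor of plasma and the contact system, had differences of -0.17, -0.16, -0.56 and -0.14 and stood at 3.59 to 5.40. The group means of A2m, Cpb2 and Klkb1 lay under the background medians, and F12 had values on either side of them.

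Genes of the cell surface that bind plasminogen or clear its activators were not called either (0 of 12 tested; 4 higher, 8 lower, median difference -0.29). Anxa2 and S100a10 form the annexin A2 complex that binds plasminogen and tissue plasminogen activator on endothelium. Anxa2 was 14.08, 14.13 and 14.98 in the knockouts against 15.75, 14.23 and 15.21 in the wildtypes, and S100a10 was 13.55 ± 0.23 against 13.89 ± 0.09 (SD, n = 3 each). The groups overlapped for both genes, with differences of -0.67 and -0.33, the opposite sign to Plat. Eno1, a glycolytic enzyme that also binds plasminogen at the cell surface, differed by 0.08.

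For partners of the urokinase receptor, 0 of 10 tested genes were called, with 8 higher and 2 lower and a median difference of 0.25. The members of highest signal were Cav1 of caveolae (18.47 ± 0.02 against 18.34 ± 0.23), Ly6e, a member of the same protein fold family as the receptor (18.54 ± 0.98 against 18.06 ± 0.54), and the integrin chain Itgb1 (14.89 ± 0.31 against 14.48 ± 0.13; SD, n = 3 each). Without knockout 52 or without wildtype 45 the count was 6 higher and 4 lower, and among arrays of low spike-in signal 4 were higher and 6 lower (median -0.10). In the list of plasmin substrates 0 of 15 were called, 6 were higher and 9 lower (median -0.12). Adamts1, Tgfb1 and Vwf, its members of highest signal, differed by 0.45, 0.16 and 0.16.

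Tissue plasminogen activator is usually counted with the endothelial genes that laminar flow and the factor Klf2 raise, so that list was read beside Plat. Of its 15 tested genes 0 were called, but 13 had a higher mean in the knockout (86.7%, against 53.7% of all genes tested) and the median difference was 0.42. Blood endothelial markers, which share Tek with this list, also had a higher mean in the knockout for 12 of 15 genes (0 called, median difference 0.34), and their part in the list's values was not tested. Gadd45b, a stress response gene, was 18.95 ± 0.38 against 18.13 ± 0.81, Klf6, a Kruppel-like factor, 14.32 ± 0.45 against 13.48 ± 1.01, and Tek, the angiopoietin receptor, 14.62 ± 0.03 against 14.28 ± 0.27 (SD, n = 3 each). Of these 3 genes the groups did not overlap for Tek, by 0.05, with the knockouts higher, as for 3.36% of all genes tested. The list did not hold its sign in all animals: in the male pair 5 genes were higher and 10 lower (median -0.16), and at low spike-in signal 6 and 9 (median -0.14). The median was 0.21 without wildtype 34 and 0.83 without wildtype 37, and with the keratinocyte median as a covariate 9 of 15 were higher.

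Genes of regulated secretion, the route by which stored tissue plasminogen activator leaves endothelial cells, gave 13 higher and 4 lower of 17 tested, 0 called, and a median of 0.22. Selp, the P-selectin of storage granules, was 14.08, 12.52 and 15.47 in the knockouts against 9.99, 15.73 and 14.11 in the wildtypes. The list turned on wildtype 34, without which it had 7 higher and 10 lower with a median of -0.11, and without knockout 52 the median was 0.02. Within the spike-in split 7 were higher and 10 lower on either side, with medians of -0.06 at high and -0.11 at low signal. Cd63 of the same granules differed by 0.44 and Angpt2, which is stored with it, by 1.09, both within the spread between animals (limma adjusted p = 0.999).

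**Figure D3:**
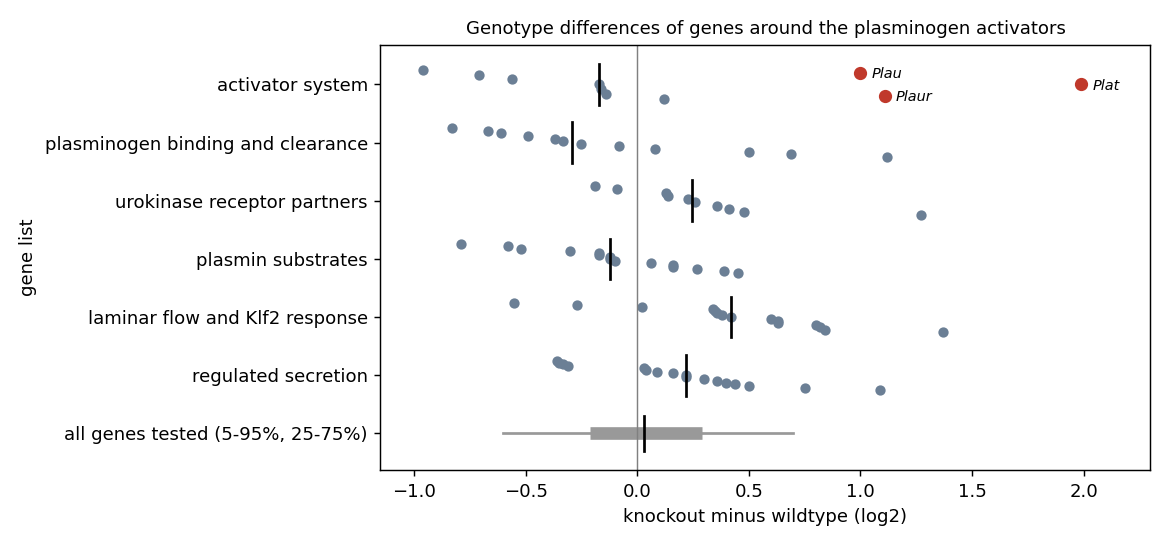
Knockout minus wildtype on the log2 scale (horizontal axis) for the tested genes of each list (grey points, black line at their median) with Plat, Plau and Plaur in red; the bottom row gives the 5th to 95th and 25th to 75th percentiles of all 11584 genes tested. The other genes of the activation system lie around -0.17, and those of the laminar flow list around 0.42.

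Markers of other skin cells were set beside the 3 genes, since pericytes, leukocytes, keratinocytes and lymphatic endothelium can also express activators or the receptor. Leukocyte markers stayed low, with medians of 4.01 to 4.37 in the knockout and 3.88 to 5.14 in the wildtype over 10 tested of 17; 2 were higher and 8 lower, and 5 were left out as dim. Ptprc, the CD45 gene of the depletion step, ran from 3.99 in wildtype 37 to 7.72 in wildtype 34. Of mast cell markers 4 of 7 tested were higher, with medians of 3.31 to 4.25 and 3.84 to 4.25. Melanocyte and Schwann cell markers had medians of 4.63 to 5.0 and 4.76 to 4.80 (4 of 5 higher). Fibroblast markers had medians of 5.64 to 6.62 and 5.12 to 7.01, with 10 of 11 lower. The leukocyte, mast cell, and melanocyte and Schwann cell medians lay near the background medians, and the fibroblast median was above them in every array. Among fibroblast markers Col3a1 ran from 11.09 to 13.30, Col1a2 from 10.18 to 12.69 and Dcn from 9.06 to 16.33, while Fap lay at 4.02 to 4.75. Single markers of the other lists also stood above background in every array. Cd68 and Lcp1, of macrophages and of leukocytes in general, ran from 8.85 to 10.72 and from 9.29 to 10.44, Lyz2 of myeloid cells from 6.65 to 10.76, Gata2, which mast cells share with endothelium, from 7.10 to 9.17, and Ngfr of Schwann cells from 5.90 to 8.42.

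Pericyte and smooth muscle markers were higher for 10 of 12, with medians of 8.04 to 9.59 in the knockout and 7.98 to 9.13 in the wildtype. Of the genes that mark pericytes rather than smooth muscle, Abcc9 was 11.40, 11.50 and 9.73 in the knockouts against 10.32, 8.46 and 9.87 in the wildtypes, and Kcnj8 was 10.19, 8.53 and 8.68 against 8.36, 7.51 and 8.39. Only Kcnj8 of the 12 markers had every knockout above every wildtype array, by 0.14, as did 3.36% of all genes tested. Pdgfrb, Rgs5, Higd1b, Cspg4 and Notch3 differed by 1.13, 0.82, 0.85, 0.29 and 0.30. Acta2, Tagln, Cnn1 and Myh11 of smooth muscle, and Des, differed by 0.18, -0.44, -0.23, 0.61 and 0.27. Of the 12 markers 0 were called. Cnn1 lay at 3.58 to 4.14, under the background medians, and Higd1b (3.98 to 5.50) and Cspg4 (4.06 to 5.62) lay near them. Lymphatic markers were higher for 5 of 6, with medians of 7.12 to 8.56 against 5.24 to 8.29. The lowest medians, 7.12 and 5.24, were those of the males 52 and 37. The lymphatic marker Ccl21 was bright, at 17.06, 16.14 and 13.13 in the knockouts against 15.0, 15.82 and 9.91 in the wildtypes (difference 1.87). Prox1 ran from 4.41 to 8.03 (difference -0.01). Ccl21 was among the 3 genes called between sexes (male minus female -4.49, limma adjusted p = 0.0321). Within the knockouts Plat and the lymphatic median were both lowest in animal 52. In wildtype 34, 45 and 37 the lymphatic medians were 7.62, 8.29 and 5.24, and Plat was 11.97, 11.83 and 11.81. The part of lymphatic RNA in the Plat values was not tested. Keratinocyte markers were lower for 7 of 7 and erythroid markers higher for 5 of 5, the latter with a median of 13.04 in knockout 28 against 6.73 to 9.63 in the other arrays. The part of these other cells in the values of the 3 genes was not tested beyond the subsets and covariates above.

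**Figure D4:**
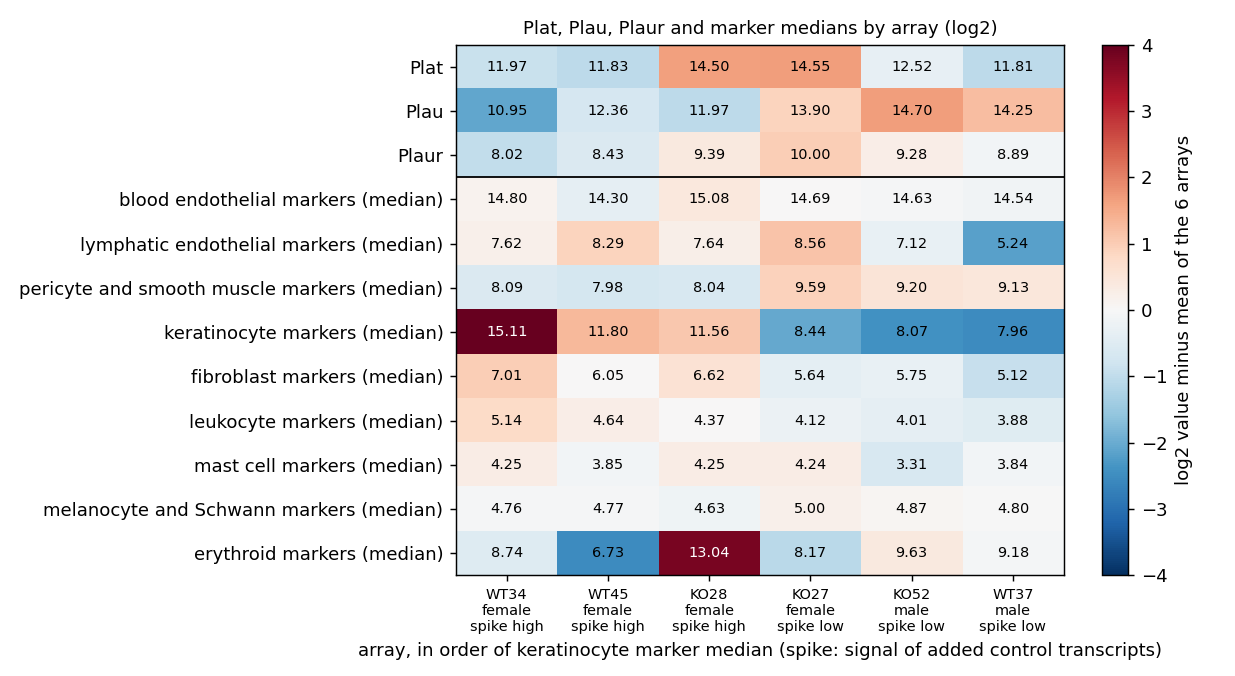
Log2 expression of Plat, Plau and Plaur and the median of each marker list (printed in the cells) in the 6 arrays, ordered from left to right by falling keratinocyte median; colour gives the value minus the mean of its row. Plat is high in knockout 28 and 27, on both sides of the keratinocyte and spike-in split, whereas Plau is high in the 3 arrays on the right.

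Across the 6 arrays the 3 genes did not move as a unit. Pearson's r was 0.82 between Plat and Plaur, 0.61 between Plau and Plaur and 0.04 between Plat and Plau, given as descriptions of 6 arrays that share their processing. The genes most like Plat by r were Or5d40 (0.992), Capn12 (0.989), Stxbp6 (0.981), Olr1675 (0.981) and Atpaf2 (0.979), of which 4 had a mean below the highest background median, 4.73. Stxbp6, a protein of the syntaxin-binding group, was the exception, at 6.21, 5.91 and 4.77 in the knockouts against 4.66, 4.17 and 4.47 in the wildtypes. In all, 22 of 11583 other genes reached r = 0.95 with Plat and 22 with Plaur, against 217 with Plau.

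The genes most like Plau were Dbr1 (0.999), Pelo, Rassf5, Glul and Ralgdsl2 (0.993 each). Pelo, a factor that rescues stalled ribosomes, was 10.67, 9.91 and 11.05 in the knockouts against 9.37, 10.02 and 11.04 in the wildtypes, so like Plau it was higher on every array of low spike-in signal. For Plaur they were Fads3 (0.993), Pgf (0.988), Nt5c1a (0.985), Dhx58 (0.984) and Krtap10-9 (0.981). Krtap10-9 lay under the background median in every array, and Nt5c1a and Dhx58 did so in wildtype 34 and 45. Pgf, the placental growth factor, was 6.70, 6.04 and 6.23 in the knockouts against 4.66, 5.18 and 5.53 in the wildtypes, without overlap. As these genes were picked for their likeness to a member, sharing its order of arrays or its lack of overlap is likely from the choice, and nothing is read from it. Among this many genes and 6 arrays, high values of r arise readily, and none of them was tested.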

How the data were processed

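Biotin-labelled RNA of sorted skin endothelium was measured on Affymetrix arrays, per the labels' protocols. The submitters' processing notes name Affymetrix Expression Console and RMA as what the authors used, and the deposited values were read as log2 expression per probeset; no version or genome build is given in the sources used here. RMA makes the distributions of the arrays alike, which can shift a gene when much of the RNA differs, and the values reach 19.93, so the log2 reading rests on that entry and their range. Of 24834 probesets, 1646 are controls, 15049 have 1 gene symbol, 0 several and 8139 are unnamed here; all 15049 gene identifiers matched RefSeq (GRCr8). The probeset with the highest mean stood for a gene, and a floor at the 25th percentile of non-control probeset means (3.51) removed 3453 genes as dim, leaving 11584.

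Tests used lmFit and eBayes of limma 3.58.1 in R 4.3.3, two-sided, adjusted by Benjamini-Hochberg over all genes tested and called under 0.05. Separate models held genotype alone, genotype and sex, and their interaction. An exact permutation test of 3 against 3 cannot go under 0.1. The scripts were tested on simulated data. The number of arrays limits the precision. Likeness is Pearson's r over the 6 arrays. Named are the 3 genes, Il33, all tested genes of the activation list, the 3 of highest mean and any called in the other lists, and the 5 most like each gene. The genes and lists were chosen with earlier results of these data known. Alternatives were the filter, normalization, probeset rule, sex, the spike-in split, the keratinocyte median, weights, trend and robust options, females only, and leaving out each array.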

Additional observations from a re-analysis of the deposited data

Results flagged for a closer look

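For 5 of the 41 genes named, both female knockouts lay on the same side of both female wildtypes and the male pair differed the other way. Serpinb2 differed by -1.67 in the females and 0.46 in the males, Cpb2 by -0.27 and 0.07, Cav1 by 0.22 and -0.05, Adamts1 by 0.88 and -0.40, and Angpt2 by 1.67 and -0.05. The interaction of genotype and sex had a limma adjusted p of 0.999 for each of these genes, and 15.7% of all genes tested showed such a pattern. Plat and Plaur could not be among them, because their genotype groups do not overlap, and Plau was not.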

How the results depend on the processing

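The genotype difference was 1.64 to 2.65 for Plat, 0.87 to 1.47 for Plaur and -0.17 to 1.87 for Plau over 17 alternatives; that Plat and Plaur keep their sign without an array or in females alone follows from groups that do not overlap and is no sign of stability. The number of genes called between genotypes was 0 without the filter on dim genes (335 at an unadjusted limma p under 0.05), 0 with the filter at the 50th percentile (141), 0 in females only (627), and 0 to 1 without single arrays; it was lost without knockout 27, 28 or 52 or wildtype 45 or 37. No gene of the pathway lists was called under any of the 17 alternatives. Between sexes 3 genes were called, 26 with trend and robust options, 713 with array weights, and 2 to 74 without single arrays, the most without knockout 27. The Plau difference between sexes passed with array weights (2.24, limma adjusted p = 0.0329; up to 0.877 elsewhere) and was 1.76 to 2.65 without single arrays. That of Plaur reversed to -0.28 with quantile normalization again, -0.18 with array medians centred, -0.50 with the spike-in block and -0.62 with the keratinocyte covariate, and was -0.42 to 0.67 without single arrays. The cause was not tested. That of Plat was -2.00 to -0.09 without single arrays. No interaction passed under its 5 alternatives. No paired analysis was possible because the numbers in the labels name animals and no number occurs in both groups.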

Other observations

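In each list around the activators, the gene with the largest difference was picked after its values were seen, and none passed in limma (adjusted p = 0.999 each). Beside Serpinb2 and Angpt2, given above, these were Enpp1, Vtn, Sema7a and F13a1. Vtn encodes vitronectin, a matrix protein that binds the urokinase receptor. It was 13.09, 11.61 and 12.63 in the knockouts against 10.19, 10.19 and 13.13 in the wildtypes, which puts the female knockouts 2.16 higher and knockout 52 at -0.50 relative to wildtype 37.

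Sema7a, a semaphorin held by a glycolipid anchor, was 10.91, 11.69 and 9.92 in the knockouts against 9.35, 8.87 and 10.20 in the wildtypes (difference 1.37, 95% interval 0.22 to 2.51). Enpp1, a surface enzyme that makes pyrophosphate, differed by 2.22 between the female groups and by -1.09 between the males. As with Plat, the female knockouts had the highest values of both genes, but in the male pair both were lower in the knockout. The male difference of Plat, 0.71, has its sign from the choice of the set, so no contrast with Plat is read from this. F13a1, the A chain of clotting factor XIII, lay at 2.70 to 4.59, near background.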
